A study of Mus musculus with 6 samples.

Results

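The genes described here are the mouse zinc finger genes Zfp700 to Zfp999, taken as every protein-coding gene whose symbol is Zfp followed by a number in that range and nothing else. In the deposited count table, 128 of 55401 gene identifiers met that rule, and 9 further genes with a letter after the number were left out. The series measured polyadenylated RNA in embryonic stem (ES) cells of the mouse, which are pluripotent cells kept in culture, to ask what the loss of TAF13, a subunit of the promoter-binding complex TFIID, does to messenger RNA. There were 3 libraries of cells expressing 3XHA-tagged Taf13, which received no treatment, and 3 libraries labelled KO, which received doxycycline. All 6 came from separate Petri dishes after 7 days of culture with or without the drug, and the label KO and the drug always went together, so the effects of each cannot be told apart. The sources used here do not name the strain, the clone or the link between the drug and the Taf13 allele.

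C2H2 zinc finger proteins read DNA with an array of small zinc-bound fingers, each of which contacts a few bases. Many of them carry a KRAB domain, which recruits the corepressor TRIM28 (KAP1), and TRIM28 brings the histone methyltransferase SETDB1, heterochromatin proteins and DNA methylation to the bound site. In ES cells and early embryos this machinery is known for silencing endogenous retroviruses and for protecting imprinted regions, and its genes lie in clusters that grew by tandem duplication.

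The number in the symbol is only a name, and the proteins behind it were of several kinds. A KRAB A box signature was found in the translated coding sequence of 104 of the 128 genes, with 90 of them matching all 8 scored residues and the weakest matching 7, while the best match among the other 24 was 4. The number of C2H2 fingers found by pattern ran from 0 to 23, with a median of 11 in the KRAB genes and 6 in the others. The genes lay on 17 chromosomes, with 24 on chromosome 7, 21 on chromosome 17, 16 on chromosome 4, 14 on chromosome 8, 13 on chromosome 2 and 10 on chromosome 13. Of the 128, 85 fell into 15 positional clusters, defined as 3 or more of these genes with no more than 500 kb between neighbours. Close copies limit the counting of reads: 49 genes shared at least 10% of their transcript 50-mers (stretches of 50 bases) with another gene, and 20 shared at least 50%.

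Many of the results below turn on 2 of these clusters, so promoters from them are shown first. RefSeq promoter windows (build GRCm38.p6) were matched for 109 of the 128 genes, giving 127 windows of 250 bases upstream of a start. Within the chromosome 4 cluster the median identity between pairs of windows, 1 window per gene, was 68.2% (45 pairs, 38.3% to 88.6%), and within the first chromosome 17 cluster it was 46.3% (78 pairs, 40.3% to 93.8%). The windows below are 4 genes of the chromosome 4 cluster, shown for the 12-base stretch TATTGGGCGGGT, the longest run around ATTGG that the 4 share, and the 2 genes of the chromosome 17 cluster that passed the test in the libraries labelled KO, shown for contrast. Each reads 5′ to 3′ up to the base before the RefSeq start, and capitals mark ATTGG or its reverse complement CCAAT, with the whole of TATTGGGCGGGT in capitals where present. The RefSeq start of Zfp981 lies 12893 bases from the GENCODE start of the gene, while those of the other 5 lie within 13 bases.
Zfp981 (chr4:146514670-146514919, plus strand): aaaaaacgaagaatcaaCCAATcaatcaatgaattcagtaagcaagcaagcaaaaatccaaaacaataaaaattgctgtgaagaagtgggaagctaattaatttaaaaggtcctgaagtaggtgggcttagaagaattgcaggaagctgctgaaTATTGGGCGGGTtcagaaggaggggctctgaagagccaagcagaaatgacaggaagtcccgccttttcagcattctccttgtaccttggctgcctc
Zfp982 (chr4:147492167-147492416, plus strand): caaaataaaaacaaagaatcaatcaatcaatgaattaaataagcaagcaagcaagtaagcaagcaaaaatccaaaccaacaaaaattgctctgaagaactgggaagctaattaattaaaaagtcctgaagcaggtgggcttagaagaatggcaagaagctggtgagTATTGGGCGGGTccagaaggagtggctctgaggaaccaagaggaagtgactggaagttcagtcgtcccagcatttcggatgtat
Zfp985 (chr4:147553027-147553276, plus strand): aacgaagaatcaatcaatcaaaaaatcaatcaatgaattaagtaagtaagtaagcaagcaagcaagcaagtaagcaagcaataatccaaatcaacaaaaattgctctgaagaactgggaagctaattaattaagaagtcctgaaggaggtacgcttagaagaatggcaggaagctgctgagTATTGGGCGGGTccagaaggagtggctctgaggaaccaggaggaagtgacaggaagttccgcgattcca
Zfp979 (chr4:147642509-147642758, minus strand): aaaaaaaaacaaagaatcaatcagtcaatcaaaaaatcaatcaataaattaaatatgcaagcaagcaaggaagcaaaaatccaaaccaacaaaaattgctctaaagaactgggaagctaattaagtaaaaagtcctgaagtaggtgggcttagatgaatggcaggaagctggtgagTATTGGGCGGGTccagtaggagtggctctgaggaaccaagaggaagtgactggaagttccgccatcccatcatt
Zfp760 (chr17:21707491-21707740, plus strand): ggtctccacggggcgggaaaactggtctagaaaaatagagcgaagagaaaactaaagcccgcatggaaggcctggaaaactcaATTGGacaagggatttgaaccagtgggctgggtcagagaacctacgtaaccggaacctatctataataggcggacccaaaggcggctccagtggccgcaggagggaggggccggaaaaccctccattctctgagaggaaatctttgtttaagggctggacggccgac
Zfp983 (chr17:21650361-21650610, plus strand): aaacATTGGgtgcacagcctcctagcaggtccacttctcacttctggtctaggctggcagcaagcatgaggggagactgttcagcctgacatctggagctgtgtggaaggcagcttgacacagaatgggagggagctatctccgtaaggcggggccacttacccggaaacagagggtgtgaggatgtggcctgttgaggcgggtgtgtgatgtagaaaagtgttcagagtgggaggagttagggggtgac

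The shared stretch began 96 bases before the start in Zfp981, 84 in Zfp982, 69 in Zfp985 and 74 in Zfp979. All motifs were searched on both strands. The run TATTGGGCGGGT was present in 9 of the 127 windows (7.09%), and in 12 of all 32851 RefSeq windows (0.0365%), these 9 included, while 7 of the 9 were among the 12 windows of the chromosome 4 cluster (10 genes). The stretch was taken from these windows, so its count there is a description, and it contains ATTGG and GGGCGG, so the 3 counts overlap. ATTGG or CCAAT, the core of the CCAAT box, was present in 65.4% of the windows of these genes and 33.8% of all windows, and TATAAA or TTTATA in 5.51% and 12.4%. GGGCGG or CCGCCC was at 35.4% and 32.7%, and GGAAGT or ACTTCC at 34.6% and 19.7%. These are matches of letters, with no binding measured here.

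Total counts ran from 31219328 to 50328010 per library, and 3 counts correspond to 0.0581 to 0.0961 CPM (CPM being the usual unit of gene counts scaled to library size, here with TMM-scaled sizes). Taf13 itself was no lower in the KO libraries (log2 fold change 0.40, SE 0.147, adjusted p = 0.0578, edgeR), so directions rest on the labels. All 8 ES cell markers were lower in the libraries labelled KO (summed level 3382 to 3494 CPM against 2193 to 2222), all 8 primitive endoderm markers were higher (77.0 to 88.3 against 401 to 439), 6 of 7 tested 2-cell-like markers were higher (19.4 to 23.9 against 46.7 to 52.6), and of 8 fibroblast markers 2 were higher and 1 lower (1157 to 1354 against 951 to 1352). No marker list was at 0, and the part of these other cell states in the results below was not tested. Expressing replicate 1 stood apart from the other expressing libraries (chi-square per degree of freedom 38.4 and 31, against at most 6.35 for other pairs within a group). Many results that rest on it are given with and without it. P-values from fits without this library leave out the spread that it adds.

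Of the 128 genes, 116 had enough counts to be tested. By edgeR's quasi-likelihood test at a Benjamini-Hochberg adjusted p under 0.05, the libraries labelled KO had 13 of them at a higher and 21 at a lower level, or 29.3% of those tested. Over all 17778 tested genes 40.0% passed, with 19.2% of the 17778 higher and 20.8% lower. The median log2 fold change (libraries labelled KO minus expressing libraries) was -0.08 for these genes and -0.01 for all tested genes. Changes were mostly small: only Zfp750, which rose, and Zfp981, which fell, changed 2-fold or more, and the median absolute log2 fold change of the 34 was 0.49 against 0.557 for all genes that passed. For 74 of the 82 genes that did not pass, the 95% interval excluded a change of 2-fold or more. The groups did not overlap, with the libraries labelled KO above, for 19 of the 116 (26.4% of all tested genes) and, with them below, for 27 (27.1% of all). In bulk RNA such as this, fewer cells of a type and less RNA per cell cannot be told apart.

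**Figure D1:**
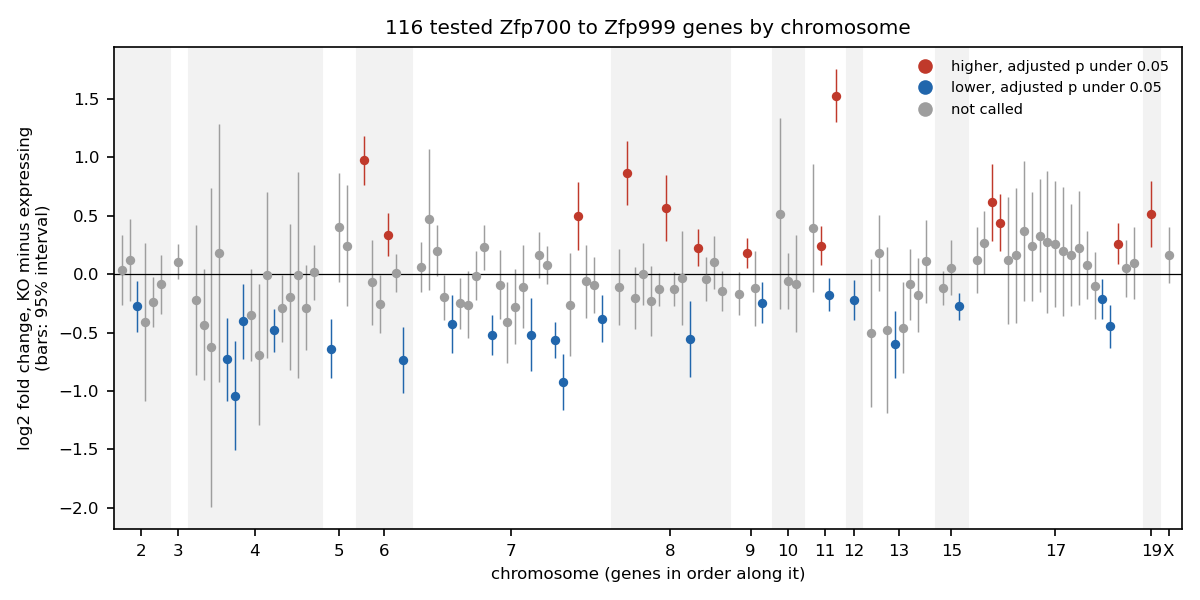
Log2 fold change (libraries labelled KO minus expressing libraries) of the 116 tested genes, in order along each chromosome, with 95% intervals; red and blue mark the 13 higher and 21 lower genes and grey the rest. The chromosome 4 points lie mostly below 0 with no gene higher, and the first run of chromosome 17 points lies above 0 with wide intervals.

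Without expressing replicate 1, 18 of the 116 were higher and 46 lower, and the median became -0.14. Of all genes tested without it 50.9% passed, 26.2% higher and 24.7% lower. All 13 increases were kept and 5 gained, and 19 of the 21 decreases were kept and 27 gained. With the GC trend of each library removed there were 16 increases and 42 decreases, beside 52.9% of all genes (25.1% higher, 27.7% lower). DESeq2 gave 13 increases and 18 decreases, beside 33.2% of all genes (16.7% higher, 16.6% lower). Scaling by library totals gave 17 increases and 15 decreases, which makes 53.1% of the calls increases in place of 38.2%. That scaling passed 39.6% of all tested genes (25.1% higher, 14.5% lower), and the share of increases among all calls moved from 48.1% to 63.5%.

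Among the 22 tested genes without a KRAB signature, 4 rose and 5 fell, where 19.2% and 20.8% of all tested genes did. Zfp750, a factor of epidermal differentiation (chromosome 11, 121510978 to 121519333), was at 6.15, 7.16 and 7.11 CPM in the expressing libraries and 18.4, 19.0 and 21.5 CPM in the libraries labelled KO. Every library labelled KO was above every expressing library by a wide margin, and the log2 fold change was 1.53 (SE 0.102, adjusted p = 7.7e-06, edgeR), the highest of the 116. Of 6 epidermal keratinocyte markers only 3 had enough counts to be tested and 0 passed in either direction by edgeR (DESeq2 gave 0 as well, and edgeR 0 with p unadjusted), and their summed level was 3.51 to 4.93 CPM in the expressing libraries and 3.66 to 5.01 CPM in the libraries labelled KO. Zfp750 overlaps Tbcd on the opposite strand, and the sources used here do not give the strand setting of the counting. This limit is not particular to Zfp750. Of all genes of the set that passed, 17 overlap a gene on the opposite strand and 12 a gene on the same strand. Among all 128 genes of the set, passed or not, these numbers were 40 and 31. Whether genes that passed overlap others more often was not tested. The 64 tested genes that overlap no annotated gene had log2 fold changes from -0.64 to 0.52. Those of the 52 tested genes that overlap another ran from -1.04 to 1.53. Without expressing replicate 2 the 2 ranges were -1.16 to 0.91 and -1.03 to 1.56. The difference between these ranges was not tested.

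Zfp800 (chromosome 6) went from 15.6, 19.0 and 19.7 CPM to 35.3, 34.8 and 36.7 CPM, a log2 fold change of 0.97 (SE 0.0944). Zfp703, of the NET family of zinc finger proteins (chromosome 8), went from 3.78, 3.42 and 2.95 CPM to 6.24, 5.90 and 6.27 CPM (0.86, SE 0.122), and Zfp768 (chromosome 7) rose by 0.50 (SE 0.130) from a mean of 5.76 CPM. In all 3 the groups did not overlap. Zfp703 and Zfp750 have no finger of the standard C2H2 pattern by the search used here.

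Zfp710 (chromosome 7, 80024814 to 80094173) was at 80.8, 60.3 and 70.0 CPM in the expressing libraries and 34.8, 36.3 and 40.0 CPM in the libraries labelled KO. The groups did not overlap, and its log2 fold change of -0.92 (SE 0.106, adjusted p = 0.000163, edgeR) was the most negative among genes without the signature. Zfp775 fell by 0.73 (SE 0.126) from 4.23 ± 0.223 to 2.53 ± 0.231 CPM (SD, n = 3). The other 3 decreases were smaller: Zfp740 at -0.27, Zfp839 at -0.22 and Zfp830, needed for survival of the early embryo, at -0.18 on the log2 scale.

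Several genes of this kind with known roles did not pass. Zfp706, known for promoting the exit of ES cells from self-renewal, was at 183, 208 and 208 CPM and 185, 181 and 184 CPM, a log2 fold change of -0.12 with a 95% interval from -0.27 to 0.02. Without expressing replicate 1 it was lower (-0.15, adjusted p = 0.000623, edgeR). Zfp704 had 0.11 (-0.04 to 0.26), the X-linked Zfp711, a relative of Zfx, 0.16 (-0.08 to 0.41), and Zfp827, which recruits the NuRD complex to telomeres, -0.04 (-0.23 to 0.15).

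Among the 94 tested genes with a KRAB signature 9 rose and 16 fell, with a median log2 fold change of -0.08. That median changed sign with library totals (0.01) and without expressing replicate 3 (0.02). Without expressing replicate 1 the counts were 12 higher and 40 lower with a median of -0.17, while the genes without the signature had 6 and 6 with a median of -0.04. The same rule applied to Zfp1 to Zfp699 gave 31 higher and 48 lower of 231 tested (median -0.02), and 49 and 72 without that library. With all libraries 26.6% of the KRAB genes, 40.9% of the genes without the signature and 34.2% of Zfp1 to Zfp699 passed. Of all tested genes 40.0% passed, 19.2% higher and 20.8% lower. Without expressing replicate 1, 26.2% of all tested genes were higher and 24.7% lower. The differences between these groups of genes were not tested.

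The increases among KRAB genes were spread over 6 chromosomes. Zfp983 (chromosome 17, 21650624 to 21664966) went from 2.53, 2.31 and 2.08 CPM to 3.32, 3.19 and 4.01 CPM, a log2 fold change of 0.61 (SE 0.148). Its neighbour Zfp760 (21707741 to 21725636) went from 48.0, 63.5 and 65.6 CPM to 82.5, 76.6 and 81.1 CPM (0.44, SE 0.108). The groups did not overlap in either gene, and expressing replicate 1 was the lowest library for Zfp760 but the highest expressing library for Zfp983. Without that library the log2 fold changes were 0.34 for Zfp760 and 0.71 for Zfp983. Zfp963 rose by 0.57 and shares 40.4% of its transcript 50-mers with other genes, Zfp950 rose by 0.52 and Zfp777 by 0.34. Without expressing replicate 1 these were 0.55, 0.40 and 0.43.

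The remaining KRAB increases were slight. Zfp961, among the most abundant of these genes per kb of exon, went from 209 ± 18.5 to 244 ± 6.78 CPM (SD, n = 3; 0.23), Zfp952 rose by 0.26 and Zfp867 by 0.24. Zfp809, which recognises the primer binding site of murine leukaemia viruses and recruits TRIM28 to them, went from 68.4, 71.5 and 73.4 CPM to 79.1, 80.7 and 82.1 CPM. The groups did not overlap, and the log2 fold change was 0.18 (SE 0.0581, adjusted p = 0.0332, edgeR).

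Zfp981 (chromosome 4, 146502027 to 146539395) had the most negative change of the 116. Its level was 61.4, 116 and 117 CPM in the expressing libraries and 49.0, 45.5 and 48.7 CPM in the libraries labelled KO. Expressing replicate 1 lay nearer to the libraries labelled KO than to the other expressing libraries, yet the groups did not overlap. The log2 fold change was -1.04 (SE 0.206, adjusted p = 0.00366, edgeR), and -1.26 without that library. The gene shares 38.7% of its transcript 50-mers with other genes and overlaps 3 genes on the opposite strand.

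Zfp819, which binds TRIM28 (chromosome 7, 43607169 to 43618285), went from 38.7, 38.6 and 39.4 CPM to 27.5, 26.7 and 24.8 CPM. Here the expressing libraries lay within 1 CPM of each other and all libraries labelled KO were below them, with a log2 fold change of -0.57 (SE 0.0693, adjusted p = 0.000235, edgeR). Zfp940, on the same chromosome, went from 33.3, 33.6 and 37.0 CPM to 23.3, 23.4 and 25.5 CPM (-0.52, SE 0.0769). Zfp951 on chromosome 5 fell by 0.64 from 27.5 ± 3.87 CPM, Zfp759 on chromosome 13 by 0.60 from 16.6 ± 2.89 CPM and Zfp870 on chromosome 17 by 0.45 from 29.4 ± 2.54 CPM (SD, n = 3).

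Expressing replicate 1 was low for Zfp936 and Zfp882, where the groups overlapped or nearly met. Zfp936 was at 79.3, 117 and 119 CPM and 79.7, 67.5 and 72.7 CPM, so that 1 library labelled KO lay above expressing replicate 1, and its log2 fold change was -0.52 with that library and -0.66 without it. Zfp882 was at 13.3, 19.1 and 17.8 CPM and 13.1, 10.3 and 10.9 CPM (-0.56, and -0.67 without expressing replicate 1). The other decreases among KRAB genes were Zfp992 (-0.73), Zfp978 (-0.48), Zfp773 (-0.42), Zfp993 (-0.41), Zfp941 (-0.38), Zfp970 (-0.28), Zfp949 (-0.24) and Zfp799 (-0.22).

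**Figure D2:**
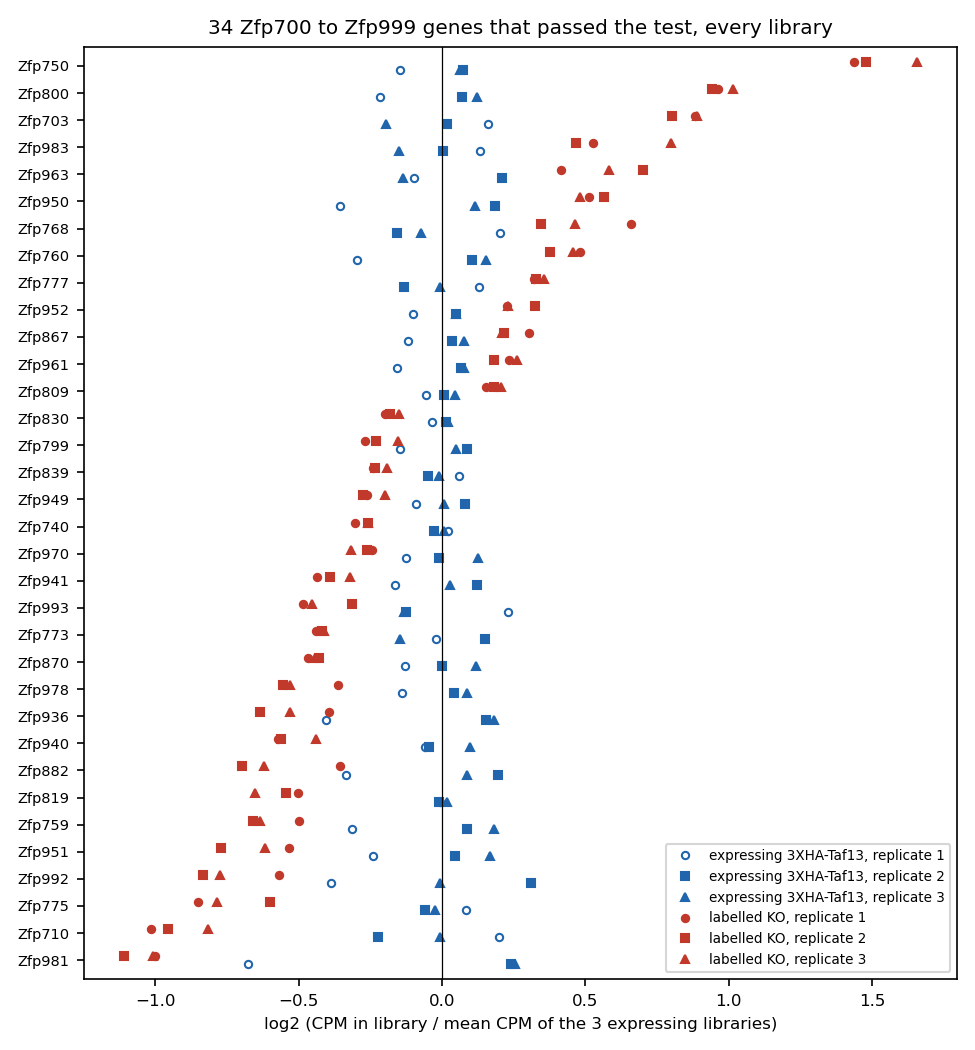
Each of the 34 genes that passed the test, with the log2 ratio of its CPM in each library to the mean CPM of the 3 expressing libraries; blue points are expressing libraries, red points libraries labelled KO, and the open circle is expressing replicate 1. Zfp750 lies furthest to the right and Zfp981 furthest to the left. The open circle is displaced to the left in several genes, among them Zfp981, Zfp936, Zfp992, Zfp882 and Zfp760.

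Of the 34 genes, 20 passed in each of the 14 alternative fits: Zfp703, Zfp750, Zfp760, Zfp777, Zfp800, Zfp950, Zfp963 and Zfp983 higher, and Zfp710, Zfp740, Zfp759, Zfp773, Zfp775, Zfp819, Zfp870, Zfp940, Zfp941, Zfp951, Zfp978 and Zfp992 lower. Zfp981 failed only when genes were not filtered on low counts (adjusted p = 0.101, edgeR), and passed without each library in turn. The other 13 lost the call when a library was left out. Zfp768 lost it without expressing replicate 3 (0.0531) or KO replicate 1 (0.0592), and Zfp882 without KO replicate 2 (0.0608) or 3 (0.0589). Zfp936 lost it without expressing replicate 2 (0.0693) or 3 (0.0613) or KO replicate 2 (0.0696) or 3 (0.0591). Zfp961 lost it without KO replicate 1 (0.0974), 2 (0.0661) or 3 (0.115), and Zfp867 likewise (0.115, 0.0721 and 0.0692). Zfp952 lost it without these (0.0667, 0.11 and 0.0698) and without expressing replicate 3 (0.052).

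Zfp809, Zfp799, Zfp830, Zfp949 and Zfp970 lost the call without any library other than expressing replicate 1. Their adjusted p-values (edgeR) then ran from 0.0526 without expressing replicate 3 to 0.127 without KO replicate 3 for Zfp809, and from 0.0962 without expressing replicate 2 to 0.169 without expressing replicate 3 for Zfp830. The ranges were 0.0802 (KO replicate 3) to 0.157 (KO replicate 1) for Zfp799, 0.0743 (KO replicate 3) to 0.116 (KO replicate 2) for Zfp949, and 0.0766 (expressing replicate 2) to 0.197 (expressing replicate 3) for Zfp970. Zfp839 failed without each of the 6 libraries in turn (0.0539 without expressing replicate 2 to 0.135 without KO replicate 2). Among those 6 fits, Zfp993 passed only without expressing replicate 2 (0.0728 to 0.167 otherwise).

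These 7 genes lay close to the threshold and also failed in fits of all 6 libraries. Zfp830, Zfp839, Zfp970 and Zfp993 failed with RLE size factors (0.0686, 0.0641, 0.0531 and 0.0566), library totals (0.324, 0.26, 0.156 and 0.134), DESeq2 (0.0901, 0.0985, 0.0793 and 0.104), no filter on low counts (0.167, 0.141, 0.0834 and 0.0643) and the replicate number as a block (0.0922, 0.0855, 0.0785 and 0.0755). Zfp993 failed with the GC trend removed as well, without the block (0.067) and with it (0.0695). Zfp799 failed with RLE size factors (0.056), library totals (0.185), DESeq2 (0.0654) and the block (0.0509). Zfp949 failed with library totals (0.151), DESeq2 (0.0501), no filter (0.0651) and the block (0.0549). Zfp809 failed with no filter (0.0812) and the block (0.0671), and Zfp867 with the block alone among these fits (0.0525).

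Expressing replicate 1 was the lowest expressing library for 87 of the 116 genes and the highest for 19, while it was the lowest for 41.1% of all tested genes. The median log2 ratio of its level to the mean of expressing replicates 2 and 3 (CPM plus 0.5) was -0.30 for these genes and 0.00 for all tested genes. For 12 genes it was below -1. These genes are poorer in GC than most, with a median transcript GC content of 40.3% against 49.5%, and the ratio was lowest in the genes lowest in GC (Pearson r = 0.723, Spearman rho = 0.821, across 116 genes that share the same 3 libraries). The trend with GC was not limited to these genes. Over all tested genes, the deviation of a library from its group mean was correlated with GC content. The correlation was 0.553 for expressing replicate 1, and -0.443 and -0.284 for expressing replicates 2 and 3. It was 0.003, 0.088 and -0.100 for the libraries labelled KO. What caused the difference of expressing replicate 1 was not tested.

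**Figure D3:**
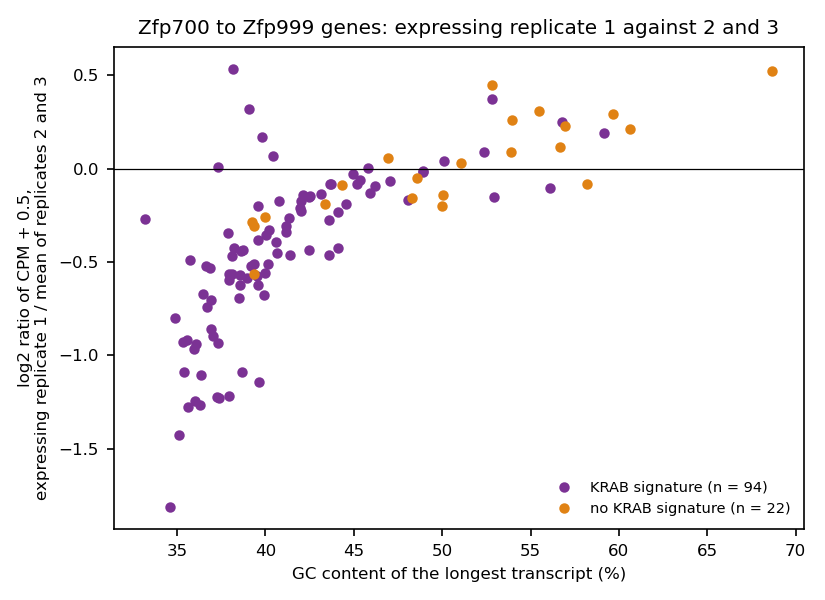
Log2 ratio of CPM plus 0.5 in expressing replicate 1 to the mean of expressing replicates 2 and 3, against the GC content of the longest transcript, for the 94 KRAB genes (purple) and the 22 other genes (orange). The ratio lies near or above 0 at high GC content and falls below -1 for 12 genes at the low end.

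The chromosome 4 cluster (145510759 to 147848366) held 16 of the genes, all with a KRAB signature and all tested. With all libraries 4 fell and 0 rose by edgeR, where 20.8% and 19.2% of all tested genes did. In the cluster 14 of the 16 log2 fold changes were negative, and the median was -0.32. DESeq2 gave 0 increases, and so did edgeR with p unadjusted. The 4 were Zfp981, Zfp992, Zfp978 and Zfp993, of which Zfp993 failed by DESeq2 (adjusted p = 0.104) and with RLE size factors (0.0566, edgeR). The 16 genes share 1.07% to 93.1% of their transcript 50-mers with other genes, so reads of the close copies may have been dropped or split. Zfp992 was at 18.4, 29.9 and 24.0 CPM in the expressing libraries and 16.3, 13.5 and 14.1 CPM in the libraries labelled KO, and Zfp978 at 62.2, 70.5 and 72.8 CPM and 53.2, 46.7 and 47.4 CPM. The groups did not overlap in either gene.

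The most abundant of all 116 genes per kb of exon lay in the same cluster and did not pass. Zfp990 was at 172, 406 and 427 CPM in the expressing libraries and 292, 276 and 295 CPM in the libraries labelled KO, so that expressing replicate 1 was the lowest of the 6 libraries and the other expressing libraries were the highest. Its log2 fold change was -0.22 (95% interval -0.86 to 0.42), and -0.51 without expressing replicate 1 (adjusted p = 1.86e-13, edgeR). That p-value rests on the other expressing libraries alone and leaves out the spread seen with all of them. Zfp985 had the same arrangement at 98.4, 232 and 236 CPM and 167, 156 and 172 CPM (-0.20, and -0.48 without it). Zfp982, reported to sustain ES cell stemness, was at 45.7, 68.2 and 56.2 CPM and 49.7, 44.8 and 44.7 CPM (-0.29, adjusted p = 0.0949, and -0.40 without it, 0.00137, edgeR).

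Zfp979, named after its values were seen, was at 57.9, 204 and 206 CPM in the expressing libraries and 168, 146 and 151 CPM in the libraries labelled KO. Its ratio of expressing replicate 1 to expressing replicates 2 and 3 was the lowest of the 116 (log2 -1.81). Its log2 fold change was -0.01 with all libraries and -0.37 without expressing replicate 1. Without that library 11 of the 16 genes of the cluster were lower and 0 higher, all 16 fold changes were negative, and the median was -0.43. In that fit 24.7% of all tested genes were lower and 26.2% higher. With the GC trend removed 7 were lower and the median was -0.39, beside 27.7% of all tested genes lower. Over the 14 alternatives the number lower ran from 3 to 11, and the median from -0.43 to -0.23. Over the same fits 11.7% to 27.7% of all tested genes were lower.

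The first chromosome 17 cluster (21567008 to 22867134) held 13 KRAB genes, all tested. Zfp983 and Zfp760 rose and 0 fell by edgeR (DESeq2 gave 0, and edgeR 0 with p unadjusted). Of all tested genes 19.2% were higher and 20.8% lower. All 13 log2 fold changes of the cluster were positive and the median was 0.26. Without expressing replicate 1 Zfp948 passed as well, so that 3 were higher and 0 lower, beside 26.2% and 24.7% of all tested genes. In that fit 7 fold changes were positive and 6 negative, and the median was 0.00. In the other 13 alternatives all 13 stayed positive. Zfp948 passed in 5 of the 14 alternatives, with a log2 fold change of 0.16 to 0.36 over the 14. Zfp820, with the smallest change of the cluster, was at 8.61, 18.8 and 19.3 CPM in the expressing libraries and 17.5, 16.6 and 16.9 CPM in the libraries labelled KO. Its log2 fold change was 0.12 with expressing replicate 1 and -0.14 without it.

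**Figure D4:**
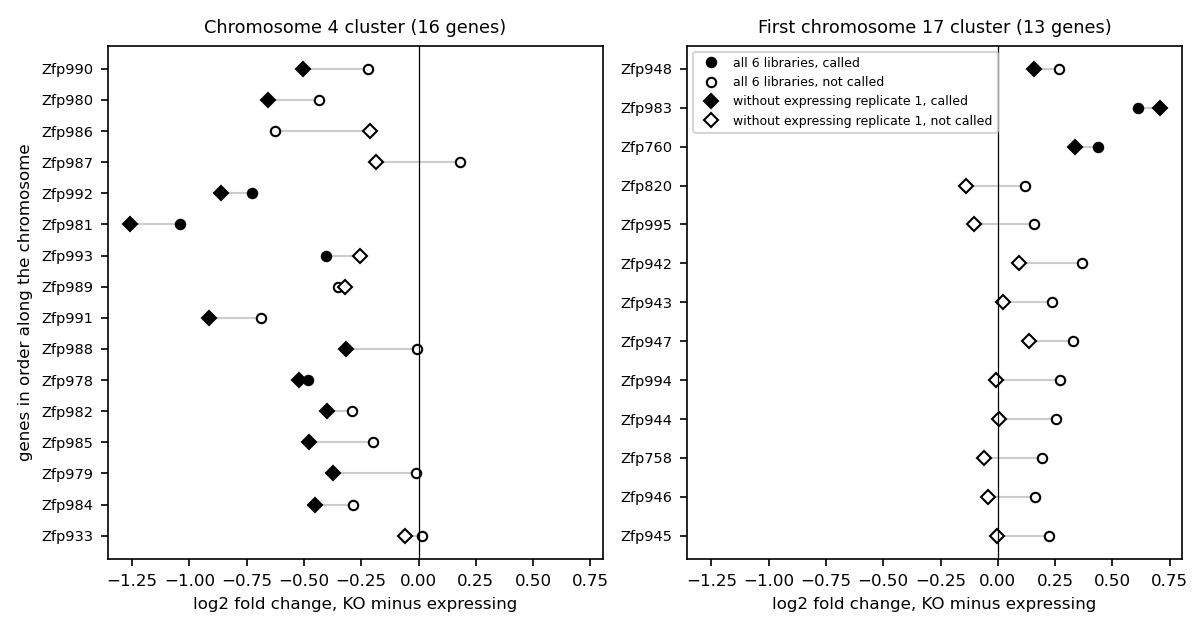
Log2 fold change (libraries labelled KO minus expressing libraries) of each gene of the chromosome 4 cluster (left) and the first chromosome 17 cluster (right), with all 6 libraries (circles) and without expressing replicate 1 (diamonds); filled symbols passed the test. Leaving the library out moves most genes to the left: 11 of 16 then pass as lower on chromosome 4. On chromosome 17 Zfp983, Zfp760 and Zfp948 then pass as higher, and the other genes centre near 0.

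Other clusters held fewer calls. Over all tested genes 19.2% were higher and 20.8% lower with all libraries, and 26.2% and 24.7% without expressing replicate 1. On chromosome 13 (67038596 to 67687071) Zfp759 was the only call among 5 tested genes, all 5 fold changes were negative with a median of -0.46, and without expressing replicate 1 all 5 were lower. On chromosome 7 (42579783 to 43618285) Zfp819 and Zfp936 fell among 7 tested, and 5 were lower without that library, while Zfp715 had 0.16 with all libraries. On chromosome 8 (69209038 to 69791178) Zfp963 rose among 6 tested, and without expressing replicate 1 it was joined by 4 lower genes, among them Zfp964 (-0.29, adjusted p = 0.0373, edgeR). The second chromosome 17 cluster (32765496 to 33033402) had 1 higher gene, Zfp952, and 2 lower, Zfp870 and Zfp799, with all libraries and without expressing replicate 1.

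By chromosome, 1 of 24 genes on chromosome 7 was higher and 6 were lower, 3 and 2 of 21 on chromosome 17, 0 and 4 of 16 on chromosome 4, 3 and 1 of 14 on chromosome 8, and 0 and 1 of 8 tested on chromosome 13 (edgeR). Both counts of 0 stayed 0 with DESeq2 and with p unadjusted. Without expressing replicate 1 the numbers were 4 and 12, 4 and 2, 0 and 11, 3 and 6, and 0 and 6. The shares of all tested genes were 19.2% higher and 20.8% lower with all libraries, and 26.2% and 24.7% without that library. Chromosome 2 held 13 genes, of which only 6 had enough counts to be tested and Zfp970 alone passed.

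Of the 12 genes not tested, 5 had no count in any library: Zfp935, Zfp965, Zfp966, Zfp968 and Zfp969. A count of 0 allows up to the level of 3 counts given above. The other 7, which include Zfp708, known for keeping methylation at RMER19B repeats, reached at most 0.301 CPM in any library. All of the 50-mers of Zfp708 are shared with other genes, so reads from it may not have been assigned to it.

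Among KRAB genes with known roles, Zfp932 and Zfp746 did not pass. Zfp932, which binds endogenous retroviruses together with its paralogue Gm15446, was at 10.1, 20.2 and 19.2 CPM and 22.4, 21.7 and 21.6 CPM. Expressing replicate 1 was again far below the rest, and the log2 fold change was 0.40 (95% interval -0.07 to 0.86), or 0.18 without it (adjusted p = 0.0332, edgeR). Zfp746, a repressor of the PGC-1alpha gene also called PARIS, was at 23.3, 24.3 and 25.8 CPM and 25.0, 24.8 and 24.2 CPM. Its log2 fold change was 0.01 with a 95% interval from -0.15 to 0.18.

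The genes whose products act with KRAB zinc finger proteins were examined as a separate list. Of 28 tested 2 rose and 15 fell, where 19.2% and 20.8% of all tested genes did. Trim28, the corepressor that the KRAB domain binds, was at 2074, 1722 and 1782 CPM in the expressing libraries and 919, 897 and 887 CPM in the libraries labelled KO. The groups were far apart, and the log2 fold change of -1.05 (SE 0.0726, adjusted p = 9.81e-06, edgeR) was the most negative of the list. Ehmt2, an H3K9 methyltransferase, went from 152, 109 and 124 CPM to 83.4, 82.2 and 76.8 CPM (-0.66, SE 0.109), and its partner Ehmt1 fell by 0.42.

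Setdb1, the H3K9 methyltransferase that TRIM28 recruits, was at 249, 251 and 241 CPM and 205, 216 and 218 CPM (-0.21, SE 0.0541), and its cofactor Atf7ip fell by 0.33 and Atf7ip2 by 0.59. Among heterochromatin proteins Cbx1 fell by 0.41, while Cbx5 had 0.08 and Cbx3 -0.07 and did not pass. Uhrf1, which guides maintenance DNA methylation, fell by 0.44, whereas Dnmt1 had -0.17 (adjusted p = 0.064, edgeR). Of the deacetylase complexes Kdm1a fell by 0.38, Hdac1 by 0.37, Chd4 by 0.36 and Hdac2 by 0.17, and Chd3 rose by 0.38. Morc3 (-0.41) and Daxx (-0.20) were also lower.

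The list holds 3 KRAB zinc finger genes outside the numbers described here. Zfp57, which guards imprinted methylation, fell by 0.30 from 307 ± 10.97 to 250.1 ± 12.6 CPM (SD, n = 3). Zfp445, with the same function, had -0.10 and did not pass, and Zfp568, which represses a placental transcript of Igf2, rose by 0.22 from 433 ± 8.91 to 505 ± 3.26 CPM (SD, n = 3). Over the 14 alternatives 2 genes of the list stayed higher in number and 12 to 22 were lower. The number was 22 without expressing replicate 1 and in both fits with the GC trend removed. Over the 14 alternatives 11.4% to 26.2% of all tested genes were higher and 11.7% to 27.7% lower.

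**Figure D5:**
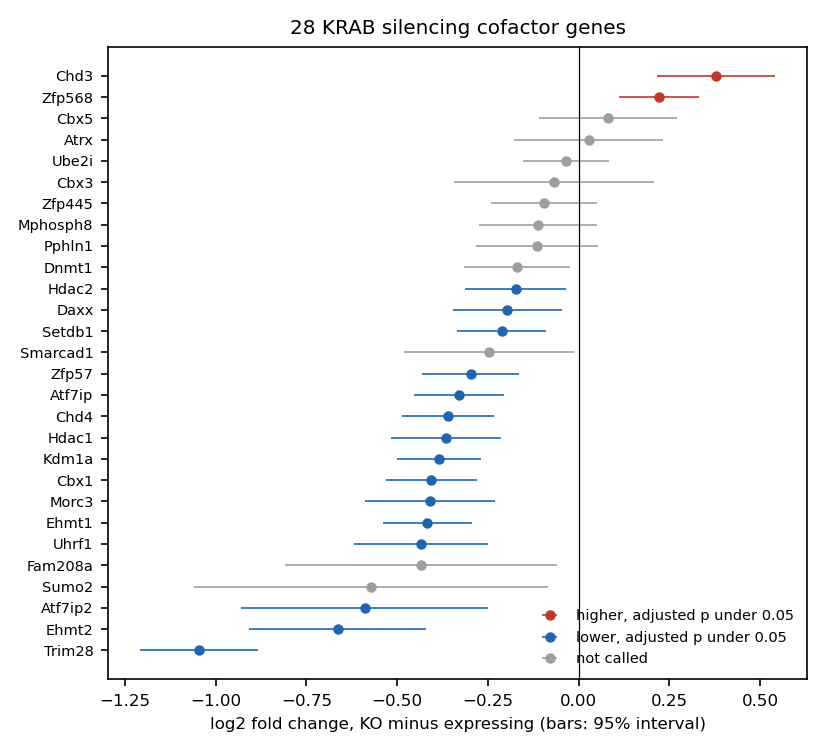
Log2 fold change (libraries labelled KO minus expressing libraries) with 95% intervals of the 28 genes that act with KRAB zinc finger proteins, sorted by value; red genes were higher, blue genes lower and grey genes did not pass. Trim28 is the lowest at -1.05, and only Chd3 and Zfp568 were higher.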

How the data were processed

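Poly(A) RNA of 6 ES cell cultures was made into stranded libraries from 800 ng of RNA each, per the labels' protocols. The authors deposited whole-number read counts per gene. STAR 2.5.3a, HTSeq 0.6.1p1, cutadapt 1.10, bcl2fastq 2.20.0.422 and the build mm10 are named in the submitters' processing notes, with settings not given in the sources used here. Genes were tested with edgeR 4.0.16 in R 4.3.3 (filterByExpr with a minimum count of 10 and total of 15, TMM, robust glmQLFit, glmQLFTest) over all 17778 genes kept, with Benjamini-Hochberg adjustment. DESeq2 1.42.0 was an alternative. Dishes may share a starting culture, so p-values measure the spread between dishes. Floors cover counting error only.

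Symbols, positions, overlaps and shared 50-mers came from GENCODE M21 and promoters from RefSeq. Protein features were planned from RefSeq proteins, which were not used here, and were read from GENCODE coding sequences instead. A KRAB signature needed 6 of 8 residues. The statistics were tested on simulated counts with the same relative spread for every gene. Those counts had no library that stood apart and no GC trend, so the check does not cover these features of the data. The genes named are the 12 largest increases and decreases that passed with a mean of at least 1 CPM, the smallest p-values, the 3 most abundant per kb, a list with described roles and each cluster's extremes. All other calls, Zfp948 and Zfp979 were named after their values were seen. The genes and lists were chosen with earlier results of these data known.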

Additional observations from a re-analysis of the deposited data

How the results depend on the processing

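The 13 increases became 8 to 18 and the 21 decreases 13 to 46 when each library was left out in turn, with 46 without expressing replicate 1, 8 increases without KO replicate 1 and 13 decreases without KO replicate 2. Over the same fits 14.1% to 26.2% of all genes tested were higher and 14.5% to 24.7% lower. With the GC trend removed 42 were lower, beside 27.7% of all genes tested. The counts were otherwise within 1.5 times the reported ones under RLE factors, library totals, DESeq2 and both filters on low counts. 2 limits were examined after seeing the data: among genes with under 10% of 50-mers shared, 12 rose and 14 fell (34.7% of 75 tested), and among the 64 tested genes that overlap no annotated gene, 4 rose and 7 fell (17.2%). Of the 52 tested genes that overlap another gene 44.2% passed, 9 higher and 14 lower. Of all tested genes 40.0% passed, 19.2% higher and 20.8% lower. The difference between genes with and without an overlap was not tested.

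Same-numbered libraries did not deviate together (correlations 0.02, -0.03 and 0.04). So few libraries cannot show whether the dishes were paired in culture or handling. With the replicate block 11 were higher and 17 lower (18.2% and 19.1% of all genes), and with the block and the GC trend removed 17 and 40 (24.8% and 27.4%).

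Of the values of named genes, 651 kept direction and side of the threshold, 37 lost and 23 gained the call, and 14 changed sign without passing in either fit. With library totals Zfp827 had 0.049, Zfp938 0.015, Zfp748 0.0073 and Zfp931 0.0038 (log2). Leaving out each library gave -0.51 to 0.0073 for Zfp990, -0.48 to 0.0082 for Zfp985, -0.086 to 0.021 for Zfp827, -0.26 to 0.049 for Zfp938, -0.21 to 0.024 for Zfp748 and -0.22 to 0.034 for Zfp810, and, both lowest without expressing replicate 1, -0.14 to 0.31 for Zfp820 and -0.19 to 0.88 for Zfp987. The cause was not tested. With 15 clusters at a 500 kb gap, a 1 Mb gap gave 14. The 12 genes not tested reached at most 0.301 CPM in any library.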
